A study of Homo sapiens with 12 samples.

Results

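The genes described are those of the membrane fusion machinery and of the vesicle coats of the early secretory pathway, 53 of the 19038 genes in the deposited tables. They were chosen by gene symbol alone: 33 SNAREs (syntaxins, VAMPs, SNAP proteins, VTI1A, VTI1B, GOSR1, GOSR2, BET1, BET1L and SEC22B) and 20 coat genes, of which 9 encode COPI subunits and 11 encode COPII subunits with their GTPases SAR1A and SAR1B. Ribosome footprints and RNA were measured in xenografts of 22Rv1, a human prostate cancer cell line, grown under the skin of the flank of male NSG mice that were 6 to 8 weeks old at injection. Once tumours reached 70 to 100 mm3, mice were randomised to zotatifin at 0.3 mg/kg in 5% dextrose or to 5% dextrose alone as vehicle, given into the peritoneum, and tumours were frozen 6 h later. The 4 groups were zotatifin footprints, vehicle footprints, zotatifin RNA and vehicle RNA, with 3 libraries each, and the RNA libraries were made from the tumour lysates that gave the footprints. All tumours came from 1 human cell line in a mouse that lacks lymphocytes but keeps its own stromal and myeloid cells. The series text calls the replicates independent. In 6 of the 12 samples the treatment field disagrees with the title, and groups follow the titles and the column names.

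SNAREs are membrane-bound proteins of vesicles and of their targets: a vesicle R-SNARE zips together with Qa, Qb and Qc helices on the target membrane, and the bundle pulls the membranes into fusion. COPII coats bud cargo vesicles from the endoplasmic reticulum (ER) once SAR1 binds GTP, and COPI coats, recruited by ARF GTPases, return proteins from the Golgi to the ER and move them within the Golgi. Secretory cells such as prostate epithelium depend on both coats. Zotatifin clamps the helicase eIF4A onto purine-rich stretches of mRNA, which blocks ribosomes that scan the leader.

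Footprint libraries held 838135 to 1540867 counts with zotatifin and 1592316 to 2013968 with vehicle, and RNA libraries held 6594884 to 8153674 with zotatifin and 5761921 to 7121802 with vehicle. Levels are given as CPM, counts relative to the library total after trimmed-mean scaling, and changes as log2 of zotatifin over vehicle with their standard error (SE). A shift shared by all mRNAs cannot show on this scale. Translational efficiency (TE) of a gene is its footprint CPM divided by its RNA CPM, in log2, and a call is an adjusted p under 0.05 over all genes tested in edgeR's quasi-likelihood test. The prostate marker list, all 11 members of which passed the count filter, summed to 5275 to 6126 footprint CPM with zotatifin and 4082 to 5367 with vehicle. Of these 11, 2 rose and 1 fell in footprints, where 3.22% of all genes tested rose and 3.92% fell. Of 13 fibroblast markers, 8 were tested in footprints and 5 fell. That list summed to 146 to 273 CPM with zotatifin and 475 to 814 with vehicle. In RNA 7 of these markers were tested and 5 fell, where 0.907% of all genes fell. Their RNA summed to 72.1 to 135 CPM with zotatifin and 225 to 373 with vehicle. In TE 7 were tested and 0 were called, where 1.69% of all genes were. Of 11 myeloid markers, 6 were tested in footprints and 2 fell, and CD14 was at 0 in every footprint library. The footprint sum was 38.5 to 80.2 CPM with zotatifin against 86.3 to 378 with vehicle. In RNA 3 myeloid markers were tested and 1 fell. The 7 endothelial markers, of which 0 were tested in footprints, summed to 0 to 3.64 CPM with zotatifin and 3.30 to 4.40 CPM with vehicle, with EMCN at 0. The 9 neuroendocrine markers summed to 304 to 403 CPM with zotatifin and 217 to 262 with vehicle. Of these 9, 5 were tested in footprints and edgeR called 0, with 2 higher at an unadjusted p under 0.05. DESeq2 called 1 of the 9 higher, where it called 8.12% of the 5120 genes it tested. In bulk tumours, fewer cells of a type and less RNA per cell cannot be told apart, and the part of these shifts in the results below was not tested. Reads were mapped to hg38, and no separation of mouse reads is given in the sources used here. Whether marker reads came from mouse cells was not tested.

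Few genes of the machinery passed the test. Of the 53 genes, 46 were tested in footprints (28 SNAREs and 18 coat genes), 51 in RNA (31 and 20) and 46 in TE (28 and 18). In footprints 0 members rose and 2 fell, the SNARE STX16 and the COPII GTPase SAR1B, where 7.14% of all 9544 genes tested were called (3.92% lower and 3.22% higher). In RNA 0 members rose and 1, SAR1B, fell, where 1.72% of 13118 genes were called (0.907% lower, 0.808% higher). In TE 0 members rose and 1, STX16, fell, where 1.69% of 9454 genes were called (1.22% lower, 0.476% higher). With 1 or 2 members called per comparison, these counts stand near the shares of the whole table. At an unadjusted p under 0.05, 8 members were lower and 2 higher in footprints, where 1128 and 984 of all 9544 genes were. In RNA 4 were lower and 2 higher, where 1278 and 1123 of 13118 genes were. In TE 3 were lower and 1 higher, where 787 and 659 of 9454 genes were. DESeq2 called 0 members in footprints, 2 in RNA (SAR1B and GOSR1, both lower) and 1 in TE (STX16). In footprints DESeq2 gave STX16 no adjusted p, so the count of 0 leaves STX16 untested there. Of the 5120, 12294 and 7416 genes it tested, it called 8.12%, 2.66% and 2.86%. STX2, STX11, STX19, VAMP1, VAMP5, COPZ2 and SEC31B had too few footprints to be tested, and STX11 and STX19 were not tested in RNA either.

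SNAREs and coats were set side by side by their medians and counts. The median footprint change was -0.16 over the 28 SNAREs and -0.04 over the 18 coat genes, beside 0.0030 over all genes tested. Of the SNAREs, 19 lay below 0, and of the coat genes 10, where 49.7% of all genes did. In RNA the medians were -0.05 for SNAREs and -0.05 for coats, beside -0.0023 for all genes, and in TE -0.06 and 0.0024, beside 0.016. The SNARE footprint median lay between -0.16 and -0.062 when each library was left out in turn, and the coat footprint median between -0.10 and -0.015. Without vehicle tumour 1 the medians were -0.062 over SNAREs and -0.063 over coats, and without zotatifin tumour 1 they were -0.092 and -0.102. Without either of these tumours the SNARE median was thus no lower than the coat median. The coat TE median changed sign, with -0.052 to 0.035 when each library was left out. The SNAREs took 22.7%, 24.2% and 22.7% of all SNARE and coat footprints in the zotatifin tumours and 25.1%, 23.9% and 22.7% in the vehicle tumours. These shares overlap between treatments. In RNA the SNARE share was 39.6%, 41.4% and 40.0% with zotatifin and 45.5%, 39.7% and 41.2% with vehicle, and vehicle tumour 1 stood highest. Summed SNARE footprints were 987 to 1002 CPM with zotatifin and 1041 to 1123 with vehicle, without overlap, and summed SNARE RNA was also without overlap, 1337 to 1353 CPM with zotatifin and 1379 to 1509 with vehicle. Summed coat footprints were 3132 to 3417 CPM with zotatifin and 3358 to 3537 with vehicle, and summed coat RNA was 1912 to 2040 and 1805 to 2098 CPM, each with overlap.

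**Figure D1:**
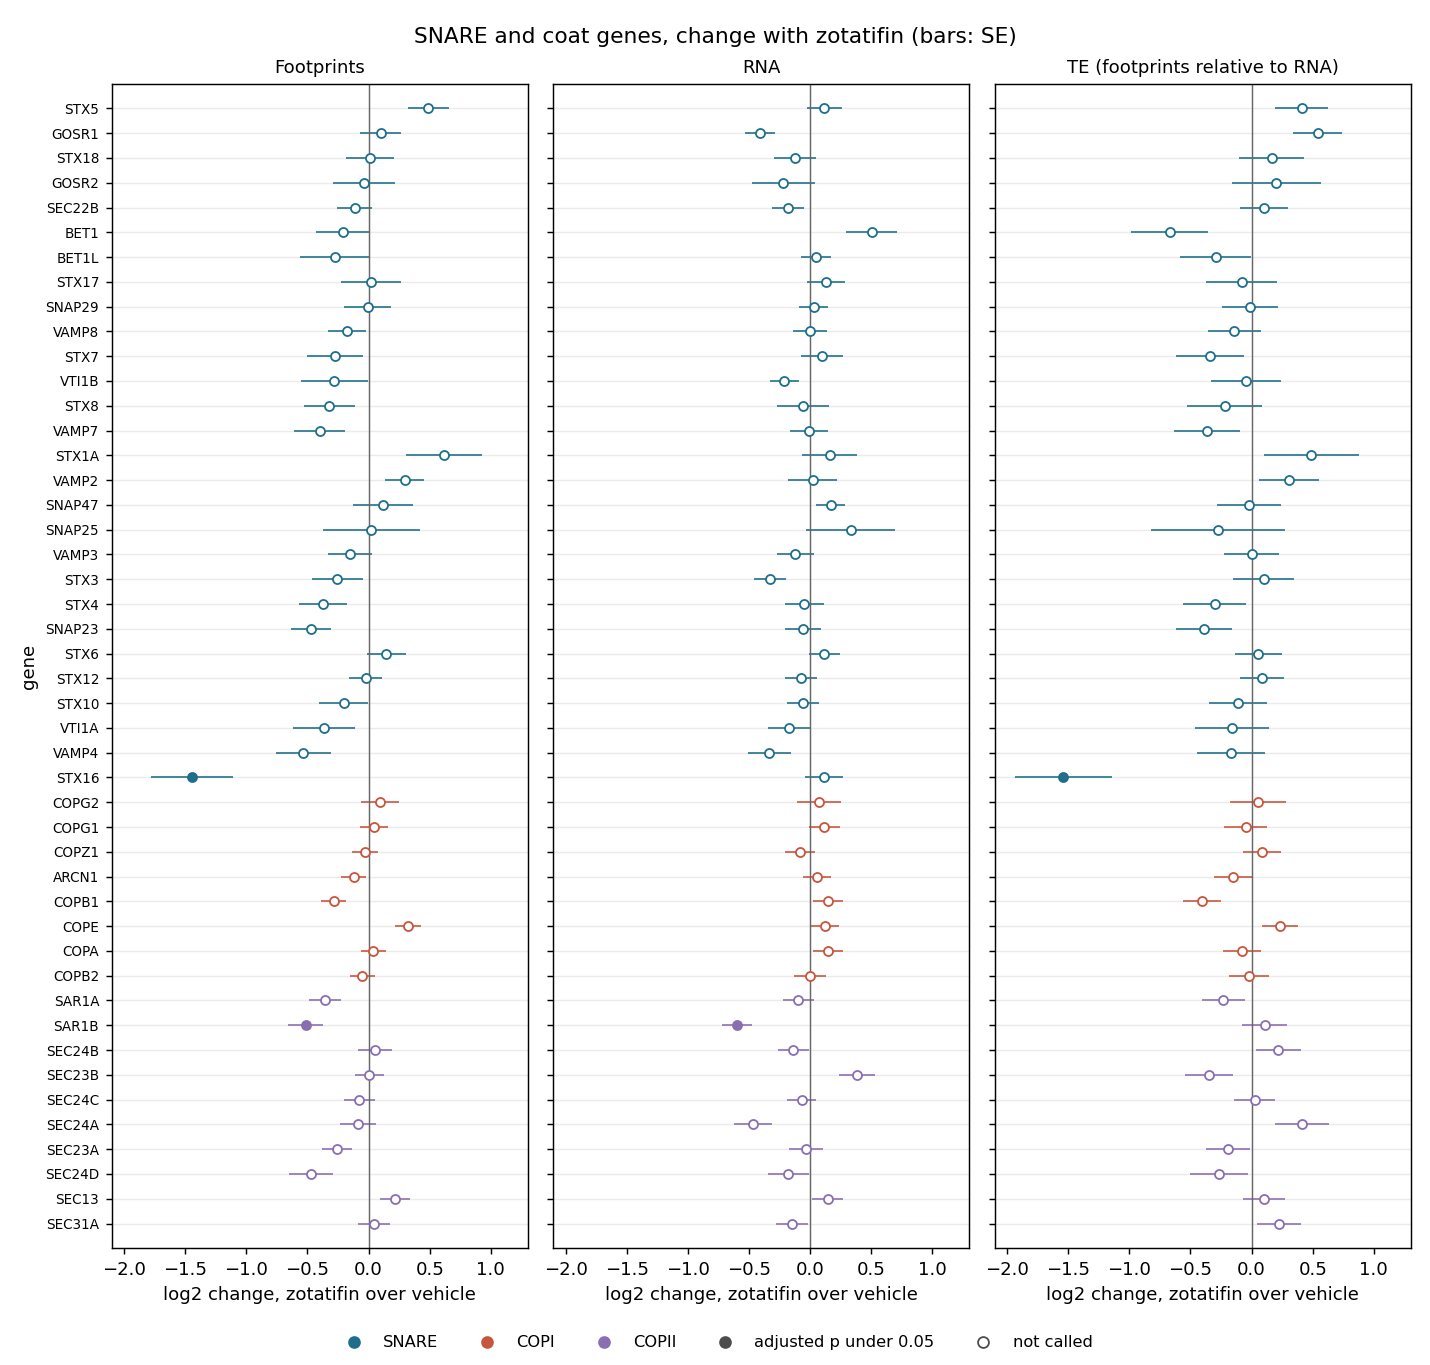
Log2 change, zotatifin over vehicle, with its SE, of the 46 members tested in footprints and TE, in footprints (left), RNA (middle) and TE (right), 3 tumours per treatment. Blue marks SNAREs, red COPI and purple COPII, and filled points have an adjusted p under 0.05: STX16 stands far left in footprints and TE but near 0 in RNA, while SAR1B lies left of 0 in footprints and RNA.

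STX16 is the Qa-SNARE of the trans-Golgi network, where it receives vesicles returning from endosomes. Its footprint level was 8.60, 8.50 and 3.85 CPM in the zotatifin tumours and 18.5, 14.8 and 20.7 CPM in the vehicle tumours. Every zotatifin tumour lay below every vehicle tumour. The mean was 6.98 ± 2.72 CPM with zotatifin and 18.0 ± 2.98 CPM with vehicle (SD, n = 3 each). The log2 change was -1.44 ± 0.33 (SE; edgeR quasi-likelihood test, adjusted p = 0.0071). The depth behind it was small: 10, 7 and 6 footprints were counted with zotatifin and 38, 27 and 33 with vehicle. STX16 RNA was 75.7, 55.5 and 68.7 CPM with zotatifin and 77.5, 49.99 and 57.4 CPM with vehicle. The RNA levels overlapped, with a log2 change of 0.12 ± 0.16 (edgeR, adjusted p = 0.73). TE per tumour was -3.07, -2.61 and -4.04 with zotatifin and -2.05, -1.73 and -1.45 with vehicle, again without overlap. The TE change was -1.54 ± 0.40 (edgeR, adjusted p = 0.039). The footprint call was lost without zotatifin tumour 3 (log2 -1.06, edgeR adjusted p = 0.075) or vehicle tumour 1 (-1.42, adjusted p = 0.051). The TE fit above had no tumour term. Its call was lost without zotatifin tumour 1 or 3 or any of the vehicle tumours. There the log2 change was -1.72 to -1.14 (edgeR, adjusted p = 0.062 to 0.24), and it stayed below 0 in each case. A TE fit with a tumour term is given further on, and it was not repeated with a library left out.

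STX16 lies on chromosome 20 (GRCh38.p14, 58651283 to 58679526), where RefSeq also places the readthrough noncoding RNA STX16-NPEPL1, so that reads of the shared exons cannot be told apart. The first 30 bases after the RefSeq start are shown for STX16, for the other called gene (SAR1B) with its paralog SAR1A, for COPB1 and GOSR1, whose TE is described further on, and for STX5, a Qa-SNARE of the Golgi. Purines (A and G) are in capitals, and the sequences read 5′ to 3′ on the strand of the gene.
STX16, chr20:58651283-58651312, plus strand: AGAtccGGGGAtGGAGGGAGccGGAGAAGA
STX5, chr11:62832022-62832051, minus strand: AGtctttGGtcGGGtttcGGcGGcttcAGt
SAR1B, chr5:134632799-134632828, minus strand: GctGAtGcGAActGGGGccAcGGcAGccAt
SAR1A, chr10:70170485-70170514, minus strand: GtAcAtccGGcGAGtAGctGGcGGtcccGG
COPB1, chr11:14499782-14499811, minus strand: AtAGccGGAGtAGAcGGAGccGcAGtAGAc
GOSR1, chr17:30477408-30477437, plus strand: AtcccGGctGAcGttGGAcGAcAAAGAtGG

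Of these 30 bases, 24 are purines in STX16, 13 in STX5, 17 in SAR1B, 16 in SAR1A, 20 in COPB1 and 18 in GOSR1. The RefSeq table held a start for 49 of the 53 members, some with several, for 65 starts in all, and BET1L, SEC24D, SNAP25 and STX17 had none in it. Over the first 50 bases, STX16 was 82% purine, the highest of the 65 starts. SNAP47 followed at 72% at 1 of its starts, and the lowest was 26% (VAMP3). The longest unbroken run of STX16 was 12 purines, a length that 3.69% of all starts reach. Runs were longer at 1 start of STX4 (16) and at 2 starts of STX18 (14 and 13), genes whose TE changes of -0.30 and 0.16 were not called. Over the 22132 starts of the whole table the median was 52% (quartiles 44% and 60%), and 46 starts (0.208%) were at least as purine-rich as that of STX16. The medians of SNAREs and coats were 54% and 52%. Among the 17 genes with 1 listed start and at least 80% purines, the median TE change was -0.26, 11 were below 0 and 1, STX16 itself, was called lower. Of all genes tested in TE, 48.1% were below 0, and of the 5459 genes with 1 start 0.898% were called lower. Without STX16 the median was -0.23 over 16 genes with 0 called lower by edgeR, beside 0.016 over those 5459 genes. At a share that low, 0 of 16 says nothing about purine-rich starts. Across the 5459 genes with 1 start and a TE change, purine share and TE change correlated at a Spearman rho of -0.079, and GC share and TE change at 0.091, where genes share libraries and base composition. The part of the leader in the STX16 change was not tested. The annotated start need not be the start used in these tumours.

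**Figure D2:**
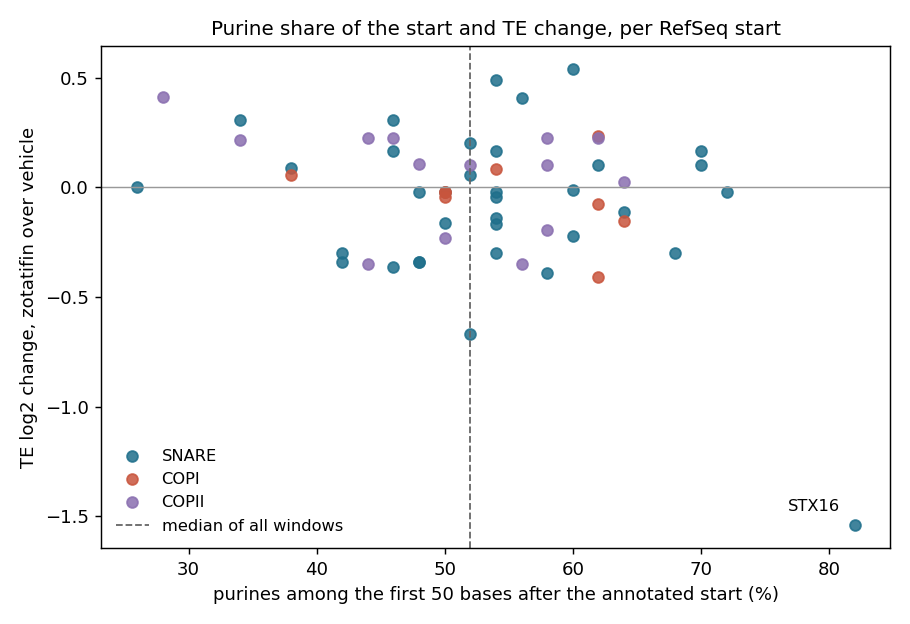
Purine share of the first 50 bases after each RefSeq start (horizontal, in percent) against the TE log2 change, zotatifin over vehicle (vertical), for the members with both values; a gene with several starts has several points. The dashed line is the median of all starts, 52%, and STX16 is the lone point at 82% and -1.54 while the other points lie between 26% and 72% purine and between -0.67 and 0.54 in TE change.

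The SNAREs of the trans-Golgi and early endosome, to which STX16 belongs, are STX12, VTI1A, STX6, STX10 and VAMP4. Of these 6 genes, 5 had a footprint change below 0 (median -0.28, range -1.44 to 0.15), and 1 fell. VAMP4, the R-SNARE that pairs with STX16, STX6 and VTI1A, had 18.9, 19.4 and 20.5 footprint CPM with zotatifin and 35.0, 26.9 and 22.6 with vehicle. The treatments did not overlap, but the change of -0.53 ± 0.23 was not called (edgeR, adjusted p = 0.16). Its RNA was also lower in every zotatifin tumour, with a log2 change of -0.33 ± 0.18 (edgeR, adjusted p = 0.31). VTI1A, the Qb-SNARE of the same complex, had -0.37 ± 0.25 and STX6, its Qc-SNARE, 0.15 ± 0.16 in footprints, neither called. STX12, an endosomal syntaxin, had the highest mean footprint CPM among SNAREs over the 6 libraries (a value that also grows with gene length), ahead of SEC22B by less than the SDs. It had 107, 98.4 and 85.9 CPM with zotatifin and 99.3, 107 and 86.8 with vehicle. Those levels overlapped, and the change was -0.02 ± 0.14.

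SNAREs of late endosomes, lysosomes and autophagosomes had a footprint median of -0.28, with 6 of 7 below 0 and 0 called by edgeR (0 also at an unadjusted p under 0.05 and by DESeq2). Their TE changes were all below 0, from -0.36 to -0.012, where 48.1% of all genes were below 0, and none was called. SNAP29 (-0.012 ± 0.23) and VTI1B (-0.045 ± 0.28) lay close to 0. The 7 genes share libraries and are not independent of each other. VAMP7, an R-SNARE of lysosome exocytosis, had the lowest footprint change of them, -0.40 ± 0.21 (edgeR, adjusted p = 0.26), and STX8, a Qc-SNARE, had -0.32 ± 0.21. VAMP8, an R-SNARE of lysosomes and secretory granules, had 56.7, 91.1 and 64.8 footprint CPM with zotatifin and 74.9, 77.0 and 82.4 with vehicle, which overlapped. STX17, the syntaxin of autophagosomes, had 0.02 ± 0.24 and its partner SNAP29 -0.01 ± 0.19. No gene of this role was separated by treatment in footprints, and in RNA VTI1B alone of the 7 was lower in every zotatifin tumour (log2 -0.21 ± 0.12; edgeR, adjusted p = 0.37).

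Of the 13 SNAREs of the plasma membrane and secretion, 8 were tested in footprints, with 4 below 0, 4 above 0 and 0 called by edgeR or DESeq2 (median -0.06; SNAP23 alone had an unadjusted p under 0.05). SNAP23, the Qbc-SNARE of exocytosis outside neurons, had 68.8, 35.2 and 62.2 CPM with zotatifin and 83.7, 79.2 and 74.8 with vehicle. All zotatifin tumours were lower, tumour 2 by the most, and the change of -0.47 ± 0.17 missed the threshold (edgeR, adjusted p = 0.080). VAMP2, an R-SNARE of regulated secretion, had 57.6, 59.5 and 50.7 CPM with zotatifin and 42.3, 48.4 and 44.6 with vehicle. All zotatifin tumours were higher here, with a change of 0.29 ± 0.16 that was not called (edgeR, adjusted p = 0.28). STX1A, the syntaxin of neurons and neuroendocrine cells, had 13.8, 10.9 and 12.8 CPM with zotatifin and 8.76, 9.35 and 6.29 with vehicle, without overlap, and a change of 0.62 ± 0.31 (edgeR, adjusted p = 0.24). The summed neuroendocrine markers, given above, were also higher in each zotatifin tumour in footprints but not in RNA (120 to 136 CPM with zotatifin, 127 to 159 with vehicle), and their part in the STX1A value was not tested. STX4, the syntaxin of constitutive exocytosis, had -0.37 ± 0.20.

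The 7 SNAREs that work between ER and Golgi had a footprint median of -0.04, and 0 were called by edgeR or DESeq2 (STX5 alone had an unadjusted p under 0.05). STX5, their Golgi Qa-SNARE, had 43.8, 54.7 and 45.5 CPM with zotatifin and 33.6, 34.1 and 33.3 with vehicle. The treatments did not overlap, and the change of 0.49 ± 0.17 was not called (edgeR, adjusted p = 0.076). SEC22B, the R-SNARE of ER to Golgi transport, had 87.7, 111 and 82.1 CPM with zotatifin and 107, 107 and 82.4 with vehicle, which overlapped (-0.12 ± 0.14). BET1, the Qc-SNARE that joins STX5, had an RNA level of 17.3, 16.6 and 13.1 CPM with zotatifin and 10.6, 10.8 and 11.7 with vehicle. That RNA difference of 0.50 ± 0.21 had no overlap but was not called (edgeR, adjusted p = 0.21), and the TE change of -0.67 ± 0.31 was not called either (adjusted p = 0.30). Over all 46 members tested in footprints, 8 were lower in every zotatifin tumour (3 SNAREs, 5 coat genes) and 5 higher (3 and 2), where 13.4% and 12.9% of all genes were. Over the 51 members tested in RNA, 8 were lower in every zotatifin tumour (5 SNAREs and 3 coat genes) and 5 higher (2 and 3), where 10.8% and 12.3% of all genes were.

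SAR1B, a GTPase that inserts into the ER membrane to start COPII assembly, fell in footprints and in RNA together. It lies on chromosome 5 (GRCh38.p14, 134601149 to 134632828). Its footprints were 72.2, 65.6 and 85.9 CPM with zotatifin and 109.96, 92.9 and 123 CPM with vehicle, and its RNA 59.5, 61.7 and 69.3 CPM with zotatifin and 95.8, 100.2 and 91.8 CPM with vehicle. The treatments did not overlap in either assay. The footprint change was -0.51 ± 0.14 (edgeR, adjusted p = 0.026) and the RNA change -0.59 ± 0.12 (edgeR, adjusted p = 0.018). TE was 0.29, 0.099 and 0.31 with zotatifin and 0.20, -0.11 and 0.42 with vehicle, which overlapped, with a change of 0.11 ± 0.19 (edgeR, adjusted p = 0.84). The footprint call was lost without zotatifin tumour 1 or 2 or vehicle tumour 1 or 3 (log2 -0.50 to -0.42, edgeR adjusted p = 0.087 to 0.12) and with DESeq2 (-0.52, adjusted p = 0.060). The RNA call was lost without zotatifin tumour 1, vehicle tumour 1 or vehicle tumour 3 (log2 -0.63 to -0.55, edgeR adjusted p = 0.071 to 0.11).

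SAR1A, the close paralog of SAR1B, had 78.2, 74.1 and 75.7 footprint CPM with zotatifin and 102, 95.7 and 93.7 CPM with vehicle. It too was lower in every zotatifin tumour, without a call (-0.36 ± 0.13; edgeR, adjusted p = 0.099). Its RNA was 57.6, 66.4 and 68.7 CPM with zotatifin and 67.9, 72.5 and 65.3 with vehicle, which overlapped (-0.10 ± 0.13). How reads that match both SAR1 genes were assigned is not given in the sources used here, so short footprints of identical stretches may be split between them. The log2 ratio of SAR1A to SAR1B RNA was -0.05, 0.10 and -0.01 with zotatifin and -0.50, -0.46 and -0.49 with vehicle. This shift of 0.50 exceeded the spread within either treatment. An exact permutation of the tumour labels, two-sided, gave p = 0.1, the lowest value that groups of 3 allow, and 0.24 after adjustment over 12 paralog pairs.

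The inner COPII coat is built from SEC23, which stimulates the GTPase, and SEC24, which binds cargo. Of its 6 genes 4 had a footprint change below 0 and 0 were called by edgeR or DESeq2 (SEC23A and SEC24D had an unadjusted p under 0.05, both lower). SEC24A, which lies next to SAR1B on chromosome 5 (134648382 to 134727909), had an RNA level of 49.01, 32.6 and 51.3 CPM with zotatifin and 60.7, 66.5 and 57.4 CPM with vehicle. The levels did not overlap, but the RNA change of -0.47 ± 0.16 was not called (edgeR, adjusted p = 0.12), and its footprints differed by -0.09 ± 0.15. SEC23B, the inner coat gene with the highest footprint CPM, had 258, 193 and 214 CPM with zotatifin and 196, 227 and 243 with vehicle, which overlapped (0.0064 ± 0.12). Its RNA was 111, 112 and 108 CPM with zotatifin and 62.8, 101 and 90.01 CPM with vehicle, higher in each zotatifin tumour, and the change of 0.38 ± 0.14 was not called (edgeR, adjusted p = 0.16). SEC24D had footprints of 29.2, 26.7 and 35.3 CPM with zotatifin and 43.3, 41.2 and 44.6 CPM with vehicle, again without overlap and without a call (-0.47 ± 0.18; edgeR, adjusted p = 0.11). In the outer cage, SEC13 had 147, 129.99 and 133 footprint CPM with zotatifin and 119.7, 122 and 112 with vehicle. It was higher in every zotatifin tumour (0.22 ± 0.12; edgeR, adjusted p = 0.30), while its cage partner SEC31A overlapped between treatments (0.05 ± 0.13). SEC24C, whose footprint CPM was close to that of SEC13, had 132, 118 and 100.03 CPM with zotatifin and 115, 119.9 and 132 with vehicle, which overlapped.

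COPI subunits had a footprint median of 0.0048 over 8 tested genes, 4 below and 4 above 0, and 0 were called by edgeR in footprints, RNA or TE without a tumour term, or by DESeq2 (COPB1, lower, and COPE, higher, had an unadjusted p under 0.05 in footprints). COPA, the alpha subunit of the outer layer and the member with the highest footprint CPM, had 526, 507 and 538 CPM with zotatifin and 490.0, 490.4 and 549.5 with vehicle. The levels overlapped, with a change of 0.04 ± 0.10. COPE, the epsilon subunit, had 220.1, 247 and 228 CPM with zotatifin and 181, 185 and 188 with vehicle, without overlap, and its change of 0.32 ± 0.11 missed the threshold (edgeR, adjusted p = 0.062). COPB1, the beta subunit of the adaptor-like layer, had 354, 319 and 389 CPM with zotatifin and 426, 417 and 458 with vehicle. It was lower in every zotatifin tumour, without a call (-0.29 ± 0.10; edgeR, adjusted p = 0.093). The other COPI genes tested (COPB2, ARCN1, COPG1, COPG2 and COPZ1) lay between -0.12 and 0.095 in footprints, and none was separated by treatment.

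**Figure D3:**
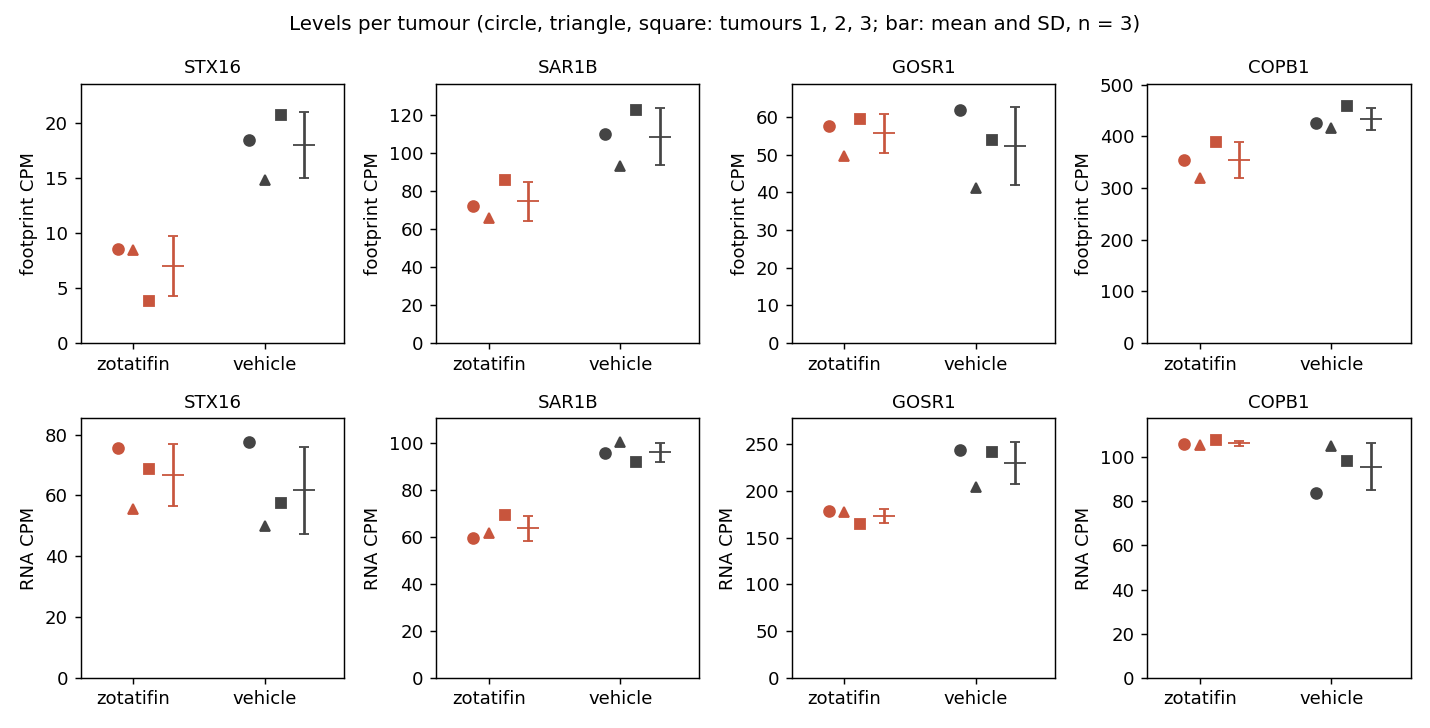
Footprint CPM (top) and RNA CPM (bottom) of STX16, SAR1B, GOSR1 and COPB1 in each tumour, zotatifin (red) left of vehicle (grey), with the mean and SD of 3 tumours beside the points. The treatments separate in footprints but not RNA for STX16, in both for SAR1B and in RNA for GOSR1. For COPB1 they separate in footprints (lower) and narrowly in RNA (higher). Its lowest zotatifin tumour had 105.6 RNA CPM and its highest vehicle tumour 105.2.

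Since footprints and RNA came from the same tumours, TE was also tested with the tumour as a block. Then 3 of the 46 members were called, 2 lower (STX16 and COPB1) and 1 higher (GOSR1), where 8.66% of all 9454 genes were called and 5.05% were lower. For STX16 the TE change was -1.56 ± 0.34 with the block (edgeR, adjusted p = 0.0015) and -1.54 ± 0.40 without it (edgeR, adjusted p = 0.039). COPB1 RNA was 106, 106 and 108 CPM with zotatifin and 83.9, 105 and 98.3 CPM with vehicle, so that it stood slightly higher in each zotatifin tumour. That RNA change of 0.15 ± 0.12 was not called (edgeR, adjusted p = 0.54). Its TE was 1.74, 1.599 and 1.85 with zotatifin and 2.34, 1.99 and 2.22 with vehicle, without overlap. The TE change was -0.41 ± 0.12 with the block (edgeR, adjusted p = 0.018) and -0.41 ± 0.16 without it (edgeR, adjusted p = 0.18). GOSR1, a Qb-SNARE of the Golgi, had 178, 178 and 164 RNA CPM with zotatifin and 244, 204 and 242 with vehicle, and its RNA change of -0.41 ± 0.12 missed the threshold (edgeR, adjusted p = 0.077). Its footprints overlapped: 57.6, 49.8 and 59.6 CPM with zotatifin and 61.8, 41.2 and 54.1 with vehicle. Its TE was -1.62, -1.82 and -1.46 with zotatifin and -1.98, -2.30 and -2.16 with vehicle, higher in every zotatifin tumour. The TE change was 0.56 ± 0.16 with the block (edgeR, adjusted p = 0.024) and 0.54 ± 0.20 without it (edgeR, adjusted p = 0.17).

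Related genes, some of them of different transport steps, can be set against each other within a library, and 12 pairs had enough counts in each assay. STX16 over STX5, Qa-SNAREs of the trans-Golgi and of the ER to Golgi step, had a footprint log2 ratio of -2.29, -2.60 and -3.46 with zotatifin and -0.85, -1.18 and -0.67 with vehicle. The ratios did not overlap and differed by -1.88 (exact permutation test, two-sided, p = 0.1, and 0.30 adjusted over 12 pairs), while the RNA ratios overlapped and differed by 0.0060. STX16 entered with a mean of 20.2 footprint counts, near the minimum of 20. It had 10, 7 and 6 counts with zotatifin and 38, 27 and 33 with vehicle, so the vehicle libraries alone exceeded that minimum. The ratio reuses the STX16 footprints described above, with the uncalled STX5 change of 0.49 added, and is no separate support. VAMP2 over its paralog VAMP3 was 0.74, 0.96 and 0.60 in footprints with zotatifin and 0.10, 0.55 and 0.26 with vehicle, a difference of 0.46 (exact permutation test, p = 0.1; 0.30 adjusted). In RNA, SEC23A over SEC23B was -0.96, -1.26 and -0.975 with zotatifin and -0.22, -0.74 and -0.89 with vehicle, a difference of -0.45 (exact permutation test, p = 0.1; 0.24 adjusted). BET1 over BET1L was -1.73, -1.78 and -2.20 in RNA with zotatifin and -2.42, -2.33 and -2.29 with vehicle, a difference of 0.44 (exact permutation test, p = 0.1; 0.24 adjusted). No pair passed after adjustment in either assay, and with 3 tumours per treatment none could.

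SNAREs and coats were also set side by side by their level of TE. In vehicle tumours the median TE was 0.69 over the 18 coat genes and 0.099 over the 28 SNAREs, beside -0.19 over all 9454 genes tested. The quartiles were 0.17 and 1.26 over coats, -0.92 and 0.65 over SNAREs, and -1.09 and 0.66 over all genes. The levels of the classes thus overlapped. COPI had the higher median of the coats, 1.23 over 8 genes, against 0.30 over 10 COPII genes. Of the coat genes 2 (SEC24C and COPE) lay below the median of all genes, and of the SNAREs 12. The order of TE levels ran from VTI1B (-2.68 ± 0.32, SD, n = 3), GOSR1 (-2.14 ± 0.16), SNAP47 (-1.84 ± 0.22), STX16 (-1.74 ± 0.30) and BET1L (-1.74 ± 0.04) at the low end to VAMP2 (1.497 ± 0.38), COPZ1 (1.51 ± 0.16), BET1 (1.54 ± 0.32) and COPB1 (2.18 ± 0.18) at the high end. SNAP47, STX16 and BET1L did not differ beyond their spread, nor did VAMP2, COPZ1 and BET1, while COPB1 stood above the highest of these by more than either SD. STX16 thus had few footprints for its RNA also with vehicle, at the 12.2 percentile of all genes. The ratio cancels the length of a gene only where both assays were counted over the same part of the transcript, which is not given in the sources used here. VTI1B overlaps GPHN and ARG2 and SNAP47 overlaps JMJD4 in RefSeq, and the strand setting of the counts is not given either.

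**Figure D4:**
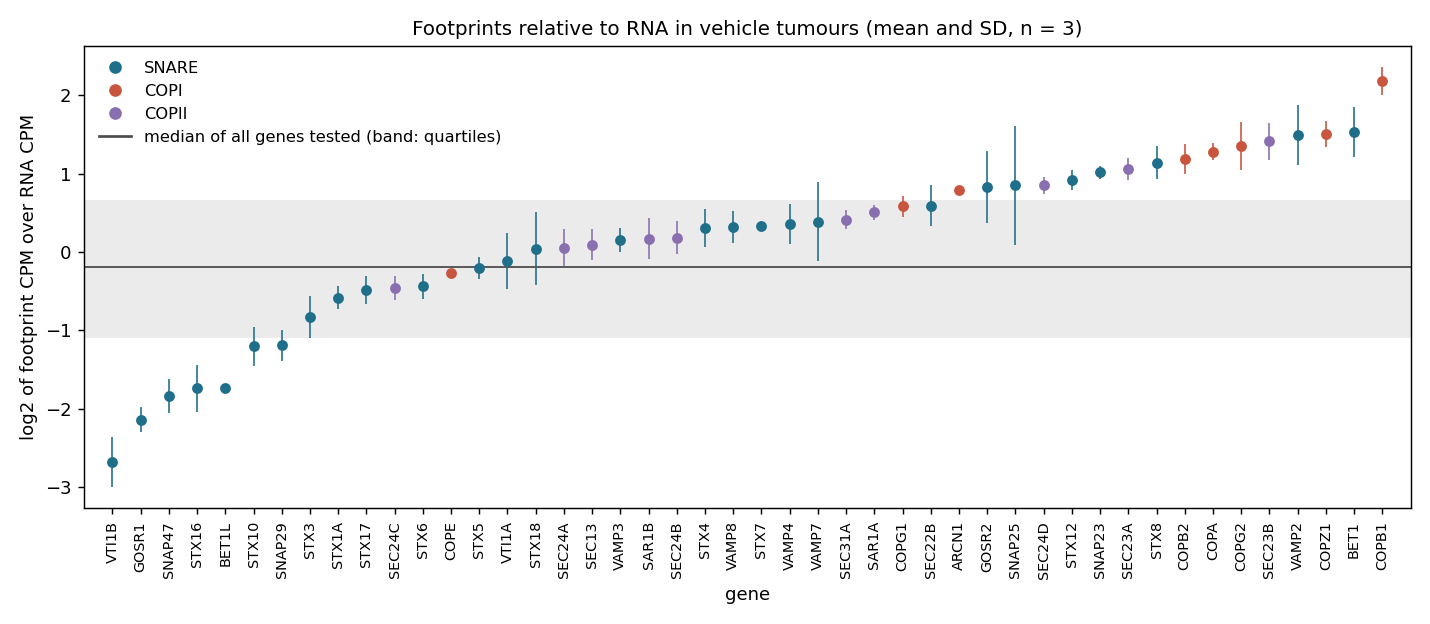
TE level (log2 of footprint over RNA CPM, vertical) of the 46 members tested in TE, ordered from low to high, in the vehicle tumours (mean and SD, n = 3). The line is the median of all genes tested, -0.19, and the band their quartiles; 12 of 28 SNAREs (blue) and 2 of 18 coat genes (red COPI, purple COPII) lie below the line.

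The promoters of the members were searched for elements of known regulators of the secretory pathway, over 250 bases before to 50 after each RefSeq start, on both strands, in 30 SNAREs and 19 coat genes with a window. The unfolded protein response element TGACGTGG, bound by XBP1 and ATF6, was present in 5 of 19 coat genes (COPA, COPB1, COPB2, SEC23A and SEC24A) and 1 of 30 SNAREs (STX5), and in 166 (1.05%) of the 15812 genes with a window. The ER stress response element and its variant, element II, searched by their consensus, were in 0 members and in 0.133% and 0.0949% of all genes. The CLEAR element of lysosomal genes was in STX4 alone of the members and in 0.639% of all genes. The first element is shown in capitals in a coat gene of each kind and in the SNARE that carries it, and it is a match of letters, not a measured site.
COPB1, chr11:14499832-14499879, minus strand: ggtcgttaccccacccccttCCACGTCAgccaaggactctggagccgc
SEC23A, chr14:39103212-39103259, minus strand: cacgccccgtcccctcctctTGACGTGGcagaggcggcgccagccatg
STX5, chr11:62832040-62832087, minus strand: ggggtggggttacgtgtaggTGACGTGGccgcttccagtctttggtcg

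In COPB1 the element lies on the opposite strand. The 6 genes that carry it did not share a direction in footprints: COPB1, SEC23A, SEC24A and COPB2 had -0.29, -0.26, -0.09 and -0.05, and COPA and STX5 had 0.04 and 0.49. In RNA, SEC24A had -0.47 and the other 5 lay between -0.03 and 0.15, and none of the 6 was called in either assay.

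The partners of these proteins were described from lists of the same pathway. Of the COPI partners (ARF GTPases, their regulators, retrieval receptors and p24 cargo proteins), 18 of 19 were tested in footprints, 4 fell and 0 rose, where 3.92% of all genes fell, and the list median was -0.01. DESeq2 called 3 of them lower. ARF3 fell by 0.67 and ARF4 by 0.59, both GTPases of the class that recruits coats, and TMED5 fell by 0.83 and TMED7 by 0.50, both p24 proteins (edgeR, adjusted p = 0.00090, 0.00105, 0.0015 and 0.035). The other ARF GTPases of the list, ARF1 (0.03 ± 0.10) and ARF5 (0.03 ± 0.11), were near 0 (edgeR, adjusted p = 0.87 and 0.89). The other p24 genes, TMED2, TMED3, TMED4, TMED9 and TMED10, lay between -0.35 and 0.16 and were not called. In TE 2 of 18 fell, where 1.22% of all genes did: ARF3 by 0.79 and ARF4 by 0.59 (edgeR, adjusted p = 0.0051 and 0.044). In RNA 0 of 19 were called by edgeR, 1 by DESeq2 and 3 had an unadjusted p under 0.05. Of the SNARE partners (NSF, SNAPs, Sec1/Munc18 proteins and further SNAREs), 0 of 19 tested were called in footprints by edgeR or DESeq2 (2 had an unadjusted p under 0.05). In RNA 1 of 21 rose, where 0.808% of all genes did: VPS33B, a lysosomal Sec1/Munc18 protein (log2 0.79 ± 0.20, edgeR adjusted p = 0.042). Of the COPII partners, 0 of 15 tested in footprints and 0 of 16 in RNA were called by edgeR; DESeq2 called 0 and 1, and 1 and 6 had an unadjusted p under 0.05. Of 52 tethers, 1 fell in footprints, where 3.92% of all genes fell, and DESeq2 called 0. The 1 was USO1, the golgin that catches ER-derived vesicles (-0.38 ± 0.12, edgeR adjusted p = 0.043). Of 24 clathrin and adaptor subunits, 2 fell in footprints, where 3.92% of all genes fell, and DESeq2 called 1 lower. The 2 were the heavy chain CLTC (-0.52 ± 0.10; edgeR, adjusted p = 0.0020) and AP1S2 of the trans-Golgi adaptor (-0.84 ± 0.24; adjusted p = 0.030). In RNA 0 were called by edgeR or DESeq2 (1 had an unadjusted p under 0.05).

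The authors' deposited tables give their own values for the members. In the authors' deposited table for RNA, SAR1B had a log2 change of -0.59 (adjusted p = 0.0018), GOSR1 -0.41 (adjusted p = 0.025) and STX16 0.12 (adjusted p = 0.81). The authors' deposited table for TE, on the natural log scale, holds 49 members (30 SNAREs and 19 coat genes), of which 8 had an FDR under 0.05, where 18.3% of its 11446 genes did. In the authors' deposited table STX16, BET1, SNAP23, COPB1 and SEC23B were lower and GOSR1, COPE and SEC24A higher. STX16 had the estimate farthest from 0 among these, -1.06 (FDR 2.8e-05) in the authors' deposited table, and COPB1 had -0.26 (FDR 2.7e-06).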

How the data were processed

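Footprints of monosomes (24 to 34 nt) and RNA were sequenced from 6 libraries each. The authors deposited raw counts per transcript. In the authors' deposited RNA table the mean level is a signal of normalised counts, changes are log2, a Wald score is the statistic, and p-values are plain or adjusted. The authors' deposited footprint table gives an estimate on the natural log scale with an FDR; over 1566 genes it had weights of 0.665 and -0.666 on the log2 footprint and RNA changes, where the natural log of 2 is 0.693, so it was read as a TE change. Per the submitters' processing notes, reads on hg38 went through Bowtie2 2.3.5, cutadapt 2.3, UMI-tools and DESeq2, in an order not stated there. The sources used here do not give the counted part of transcripts, the strand setting or any separation of mouse reads. Column names use a code number, taken here as that of zotatifin (eFT226).

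The tests used edgeR 4.0.16 in R 4.3.3: filterByExpr (minimum count 10, total 15), TMM, robust quasi-likelihood F test, Benjamini-Hochberg over all genes tested, and for TE the interaction of assay and treatment over 12 libraries. Scripts were tested on simulated data. TE per tumour used a pseudocount of 0.5 counts. Paralog ratios (pseudocount 0.5, mean of at least 20 counts) were tested by exact two-sided permutation. Alternatives were RLE size factors, no count filter, DESeq2 1.42.0, each library left out, replicate blocks and, for ratios and levels, another pseudocount or plain library totals. Replicate numbers mark tumours: over 4889 genes, footprint and RNA libraries of 1 tumour correlated at 0.217 to 0.440 after removal of group means (6 pairs), those of other tumours at -0.381 to 0.119, and same-numbered libraries of the opposite treatments at -0.0946 to 0.181, which shows no pairing across treatments. Sequences are from RefSeq, GRCh38.p14, in which all 53 symbols matched. A marker list of 1 further cell type is not reported here. Levels per kb were not computed, and levels between genes were compared as TE. Where genes are ranked by footprint CPM, the order also depends on gene length.

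The members were taken by gene symbol. The symbol rule, the lists and the named genes were set with earlier results of these data known. Values in each library are given for each called member and for the 2 members of SNAREs, COPI and COPII with the highest mean footprint CPM over the 6 footprint libraries; list genes are named where called with a mean of at least 20 counts, at most 4 per direction. Other members named with library values (some of those separated by treatment, paralogs, GOSR1, VAMP8 and SEC24C) were chosen after their values were seen. The uncalled ARF and p24 genes are named beside the called ones of their families.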

Additional observations from a re-analysis of the deposited data

How the results depend on the processing

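The SNARE footprint calls were 1 in the analysis as reported, 2 without the count filter (SNAP23, edgeR adjusted p = 0.039, beside STX16), 0 with DESeq2, which gave STX16 no adjusted p, and 0 to 1 with a library left out. The coat footprint calls were 0 with DESeq2 and 0 to 1 with a library left out. In RNA, SNARE calls were 1 with the replicate block and 1 with DESeq2 (GOSR1 in each), and coat calls were 2 without the filter and 2 with the replicate block (SEC24A, adjusted p = 0.049 in each, beside SAR1B), and 0 to 1 with a library left out. In TE, SNARE calls were 2 and coat calls 1 with the tumour as replicate block, and SNARE calls were 0 to 1 with a library left out. Because numbers showed no pairing across treatments, the blocked footprint and RNA fits share only a number. With a library left out, SNARE medians ranged from -0.16 to -0.062 in footprints and from -0.074 to 0.020 in RNA, and coat medians from -0.10 to -0.015 in footprints, from -0.10 to 0.038 in RNA and from -0.052 to 0.035 in TE; without the filter the coat TE median was -0.034. The STX16 RNA change ranged from -0.0089 to 0.31 and the SAR1B TE change from -0.016 to 0.22 with a library left out, each below 0 only without vehicle tumour 2 and never called. Over all genes, calls in footprints were 681, and 185 to 726 with a library left out, lowest without vehicle tumour 1, and 416 with DESeq2; in RNA 225, and 11 to 396 with a library left out, 624 without the filter and 527 with the block; in TE 160, and 56 to 132 with a library left out and 819 with the block. The cause of these shifts was not tested. RLE size factors changed no member's call. A pseudocount of 2 counts turned the sign of no paralog difference. With 6 to 38 footprints per library, STX16 is limited by depth.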
